A study of Homo sapiens with 5 samples.

Results

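Complement is described here through 9 genes of the 25343 in the deposited table: CFB, C3, C1R, C1S, CFI, SERPING1, CD46, CD55 and CD59. They were chosen because CFB had a far lower count with YAP than with the vector, so the ratios of CFB to vector chose the group and are given as a description. The other members were taken for their place in the same cascade, with earlier results of these data known. RNA was sequenced from 5 lines of H157, a human lung carcinoma cell line, with 1 library per line. The vector line carried the control construct that the labels name pCDNA-ctl. The other 4 lines all expressed YAP, the co-activator of the Hippo pathway, with nothing added (YAP), together with TEAD4 of full length (YAP/TEAD4-FL), together with the short TEAD4 isoform that lacks the DNA-binding domain (YAP/TEAD4-S), or together with RBM4, a splicing factor (YAP/RBM4). The libraries of the TEAD4 isoforms carry the labels YAP-TEAD434 for the full-length and YAP-TEAD305 for the short form. Each line is thus seen once, no line carried TEAD4 or RBM4 without YAP, and the promoter that drives the constructs and the number of clones behind a line are not known here. The methods describe pCDH vectors for stable lines while the labels name pCDNA, and this bears on every ratio to vector.

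Complement is a protease cascade of plasma and tissue fluid that coats targets and forms pores in their membranes. The classical pathway starts when C1q binds its target and the proteases C1r and C1s are activated and cleave C4 and C2, while the alternative pathway builds its C3-cleaving enzyme from C3b and factor B. Both routes meet at C3, the central component, and host cells hold the cascade back with soluble inhibitors such as the C1 inhibitor and with the membrane proteins CD46, CD55 and CD59. The liver makes most of the plasma pool, and epithelial cells also transcribe several components when inflammatory cytokines reach them.

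Expected counts summed to between 1399452 (YAP) and 3015173 (YAP/TEAD4-S) per library. Levels are counts scaled to the library total (CPM). With 1 library per line there is no spread between replicates and no test between lines. Behind each ratio stands, in parentheses, its exact 95% interval (Clopper-Pearson) from the rounded counts, for counting error only, and a gene is called lower or higher where the ratio of CPM + 0.5 reached 2-fold, among the 15024 genes whose mean reached 1 CPM. Over these genes the median log2 ratio to vector was 0.00060 with YAP, 0.094 in YAP/TEAD4-FL, −0.29 in YAP/TEAD4-S and 0.17 in the RBM4-labelled library, so ratios scaled by trimmed means (TMM), which bring those medians to between −0.020 and 0.024, are given for the members where they move a value across 2-fold or its interval across 1, and for other genes where a statement turns on it. YAP1 was at 33.1 CPM in the vector library and between 59.4 and 136 CPM in the other 4, and TEAD4 was at 120.6 and 50.03 CPM with its 2 isoforms and between 3.57 and 5.73 CPM elsewhere. RBM4 was at 149.7 CPM with the vector, 201.9 CPM with YAP and 167.2 CPM in the library with its label. The ratio there to vector was 1.12 (0.965 to 1.29), so that library is called the RBM4-labelled library here. Genes of the table share 23.8% of the exon bases of RBM4 on the same strand and lie opposite to 9.02%. The methods report western blots of the transgenes in stable lines, and these counts do not settle whether the line expressed RBM4 protein. Of the epithelial markers, 4 of 6 passed the filter, and their summed level ranged from 526 to 1406 CPM. KRT8 alone was at 253 to 1017 CPM, while EPCAM and KRT19 did not pass. Squamous markers summed to at most 1.66 CPM and hepatocyte markers to at most 0.932 CPM, with TP63, ALB and TF at 0 counts in every library. Leukocyte markers (4 of 7 passed, CD3E at 0) summed to between 261 and 333 CPM. Most of this came from PTPRC, at 213 to 254 CPM, and CD68, at 42.2 to 75.5 CPM. Another gene on the same strand covers 81.6% of the exon bases of CD68. Fibroblast markers (2 of 5, COL1A2 and DCN at 0) summed to between 4.10 and 20.3 CPM. Endothelial markers (1 of 3, VWF at 0) summed to between 94.0 and 147.5 CPM, nearly all from PECAM1. The strand of the counts is open. VIM-AS1, which lies antisense to the vimentin gene VIM, was at 9952 to 19479 CPM, whereas VIM was at 253 to 517 CPM. Of 242 pairs of a gene and an antisense gene named after it, with exons on opposite strands and a mean of at least 10 CPM for the higher one, the antisense gene was the higher in 159, by at least 10 times in 64, and the partner was at least 10 times higher in 42. ACTB, GAPDH and EEF1A1, which cells transcribe at high levels, ranked 104, 102 and 99 by mean CPM. No strand setting is stated in the sources used here, so each level below is the level of what the table assigned to a symbol, and whether the RNA of that gene's own strand moved in the same way was not tested. In bulk RNA, fewer expressing cells and less RNA per cell cannot be told apart.

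Of the 9 members, 8 passed the filter. CFI had no count in any of the 5 libraries. Among the 8, YAP had 4 at least 2-fold below vector, against 9.57% of all 15024 genes. YAP/TEAD4-FL had 3 (background 6.0%), YAP/TEAD4-S had 5 (11.0%) and the RBM4-labelled library had 3 (3.47%). CFB and the proteases C1R and C1S were among those called in each of these comparisons, SERPING1 was called with YAP and in YAP/TEAD4-S, and C3 was called in YAP/TEAD4-S on library totals but not with TMM factors. All 4 comparisons share the vector library. In the higher direction no member reached 2-fold with YAP (background 4.9%), YAP/TEAD4-FL (8.9%) or YAP/TEAD4-S (3.5%), and 1 did in the RBM4-labelled library (9.22%), CD55. CFB is counted here although it chose the group. Without it, 3, 2, 4 and 2 of the other 7 were lower in the same order of lines, and the median log2 ratio of those 7 was −0.46, −0.43, −1.01 and −0.019. Those 7 were also chosen with earlier results of these data known, so leaving out CFB does not undo the choice.

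**Figure D1:**
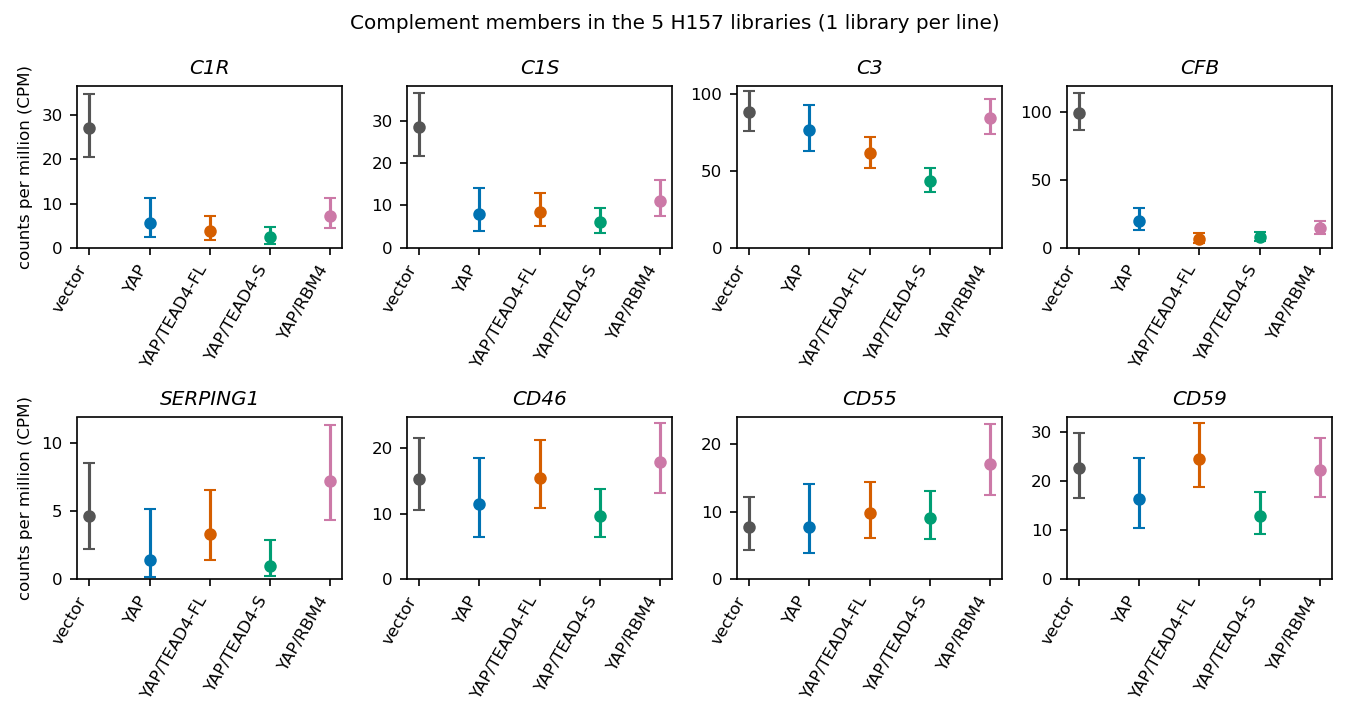
Level of each complement gene with counts in the 5 libraries, in CPM on a linear axis, with 1 point per library. Bars give the exact 95% counting interval, and there is no replicate. CFB was at 99.4 CPM in the vector library and between 6.68 and 19.99 CPM in the other 4, C1R and C1S also stood highest with the vector, and CFI had no count.

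CFB encodes factor B, the protease zymogen of the alternative pathway. The gene lies in the class III region of the major histocompatibility complex, on the plus strand of chromosome 6 from 31913427 to 31919863 (hg19). CFB was at 99.4 CPM (213 counts) in the vector library, 19.99 CPM (28 counts) with YAP, 6.68 CPM (16 counts) in YAP/TEAD4-FL, 7.77 CPM (23 counts) in YAP/TEAD4-S and 14.7 CPM (38 counts) in the RBM4-labelled library. The vector library stood alone at the top, and its interval did not meet that of any other. The ratios to vector, which chose the gene, were 0.2011 (0.131 to 0.2996), 0.0672 (0.0377 to 0.112), 0.0782 (0.0477 to 0.118) and 0.148 (0.101 to 0.207). Over 4 ways of scaling the libraries the ratio lay between 0.193 and 0.201 with YAP, 0.0625 and 0.0672 in YAP/TEAD4-FL, 0.0782 and 0.0962 in YAP/TEAD4-S, and 0.131 and 0.148 in the RBM4-labelled library.

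The ratios to YAP alone were not those that chose the gene, but they reuse the low levels of the same YAP lines. They too are given as a description. CFB was lower in YAP/TEAD4-FL than with YAP, at a ratio of 0.334 (0.169 to 0.638), and lower in YAP/TEAD4-S, at 0.389 (0.210 to 0.686). The second value was 0.486 (0.262 to 0.858) with TMM factors, and it was 0.492 without the 50 most abundant genes, so it stands close to the 2-fold line. In the RBM4-labelled library the ratio to YAP was 0.734, and its interval of 0.433 to 1.23 includes 1. The 2 TEAD4 isoforms were not told apart by CFB, with a ratio of the short to the full-length form of 1.16 (0.578 to 2.31), or 1.53 (0.760 to 3.04) with TMM factors.

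How far these reads belong to CFB depends on the annotation and on the strand that was counted, which is open for every gene as the levels of VIM-AS1 and VIM show. No annotated exon lies opposite to an exon of CFB, so no antisense gene gives a value to set beside it. In the GENCODE annotation on hg19, 42.8% of the exon bases of CFB are also exon of another gene on that strand. Of these, 2249 bases (42.3%) are shared with a readthrough gene that joins C2 to CFB and is not a gene of the deposited table, so reads of the joined transcript and of CFB alone cannot be told apart there. Only 24 bases (0.452%) are shared with C2, the neighbour that is in the table. C2, which encodes the classical pathway counterpart of factor B, was at 36.4 CPM in the vector library, 51.5 CPM with YAP, 37.6 CPM in YAP/TEAD4-FL, 23.7 CPM in YAP/TEAD4-S and 26.1 CPM in the RBM4-labelled library. The levels of C2 did not follow those of CFB. The ratios of C2 to vector were 1.42 (1.01 to 1.97), 1.03 (0.754 to 1.42), 0.652 (0.463 to 0.905) and 0.718 (0.508 to 1.00), and with TMM factors the value in YAP was 1.39 with an interval from 0.996 the value in YAP/TEAD4-S was 0.802 with an interval to 1.11, and the value in the RBM4-labelled library was 0.645 with an interval to 0.8996.

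The bases upstream of CFB and C1R are shown because these genes had the lowest ratios to vector among the members, and because letters known from cytokine-responsive and TEAD-bound promoters can be looked for in them. RefSeq promoters (GRCh38.p14 table, 250 bases before the start) were found for 6 of the 9 members, namely CFB, C1R, CFI, CD46, CD55 and CD59, and the stretches below were placed on GRCh37 by an exact match. Capitals mark the matched letters, and positions count back from the RefSeq start.
CFB, chr6:31913722-31913751, plus strand, interferon element on the minus strand: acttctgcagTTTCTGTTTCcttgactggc
CFB, chr6:31913760-31913788, plus strand, NF-kB and STAT letters: GGGGCCCTCCcgcttggatgTTCCGGGAA
CFB, chr6:31913830-31913859, plus strand, TATA box: gaacacagattgTATAAAaggctgggggct
C1R, chr12:7245106-7245133, minus strand, TEAD cores: CATTCCctccaaCATTCCtccgGGAATG
The first CFB stretch lies in no annotated exon. The other two CFB stretches lie in an exon of a longer CFB transcript in GENCODE, which starts upstream of the RefSeq start, and the C1R stretch lies in an exon of C1R by the same annotation. In the CFB window the interferon-stimulated element (GAAANNGAAA) was matched at −140, the NF-kB consensus at −112, the STAT gamma-activated site (TTCNNNGAA) at −92 and the TATA box (TATAAA) at −30. The window held no match to the TEAD core (GGAATG) and none to the AP-1 site (TGANTCA). The C1R window held 3 TEAD cores, at −92, −80 and −70, and none of the other letters. On either strand, the share of 35116 promoter windows with a match was 3.02% for the interferon element, 9.96% for NF-kB, 6.57% for the STAT site, 10.7% for the TATA box, 11.9% for the TEAD core and 6.57% for AP-1. At least 3 TEAD cores stood in 29 windows (0.0826%), a count made after the C1R window had been seen. Of the 6 member promoters, the STAT site was matched in 2 (CFB and CD59), the interferon element, NF-kB and the TATA box in CFB, the TEAD core in C1R and AP-1 in 0. These are matches of letters and not measured binding.

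C1R and C1S encode the proteases that C1q carries. The genes are neighbours on chromosome 12 (hg19), C1S on the plus strand from 7096351 to 7178336 and C1R on the minus strand from 7187513 to 7245203. C1R was at 27.0 CPM (58 counts) in the vector library, 5.72 CPM (8 counts) with YAP, 3.76 CPM (9 counts) in YAP/TEAD4-FL, 2.32 CPM (7 counts) in YAP/TEAD4-S and 7.25 CPM (19 counts) in the RBM4-labelled library. C1S was at 28.4 CPM (61 counts), 7.86 CPM (11 counts), 8.34 CPM (20 counts), 5.97 CPM (18 counts) and 11.1 CPM (29 counts) in the same order. Both were highest with the vector and lowest in YAP/TEAD4-S. The ratios of C1R to vector were 0.211 (0.0872 to 0.445) with YAP, 0.139 (0.0605 to 0.282) in YAP/TEAD4-FL, 0.0859 (0.0331 to 0.188) in YAP/TEAD4-S and 0.268 (0.151 to 0.457) in the RBM4-labelled library. The ratios of C1S were 0.276 (0.131 to 0.530), 0.293 (0.168 to 0.493), 0.210 (0.117 to 0.360) and 0.389 (0.241 to 0.615). All 8 intervals lie below 1, also with TMM factors, so the lower levels with each construct exceed the counting error of these libraries.

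Against YAP alone, neither protease moved beyond counting error. C1R had ratios of 0.657 (0.225 to 1.96) in YAP/TEAD4-FL, 0.406 (0.125 to 1.28) in YAP/TEAD4-S and 1.27 (0.530 to 3.35) in the RBM4-labelled library, and C1S had 1.06 (0.485 to 2.45), 0.759 (0.340 to 1.78) and 1.41 (0.683 to 3.12). Scaled by TMM, C1R in YAP/TEAD4-S stood at 0.508 times YAP. These wide intervals rest on 8 counts of C1R and 11 of C1S in the YAP library and do not show that the lines are alike. Of the exon bases of C1R, 14.3% lie in exons of C1RL on the same strand, and of those of C1S, 2.76% lie in a gene that is not in the table. The summed counts of C1R and C1S were 119, 19, 29, 25 and 48, with ratios of the sum to vector of 0.245 (0.142 to 0.399), 0.218 (0.140 to 0.330), 0.149 (0.0930 to 0.232) and 0.330 (0.231 to 0.465).

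C4A and C4B, which are no members, encode the next component that C1s cleaves. They are near-identical copies whose reads may have been split between them, so their counts were summed. The sum was 59 counts (27.6 CPM) in the vector library, 8 (5.57 CPM) with YAP, 6 (2.61 CPM) in YAP/TEAD4-FL, 4 (1.33 CPM) in YAP/TEAD4-S and 12 (4.81 CPM) in the RBM4-labelled library. As for C1R and C1S, the vector library was the highest. The ratios to vector were 0.202 (0.0858 to 0.437), 0.0944 (0.0321 to 0.210), 0.0480 (0.0127 to 0.130) and 0.174 (0.0815 to 0.313). The C1q genes themselves could not be followed, since C1QA and C1QB had a mean of 0 CPM.

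C3 encodes the component on which all activation routes converge, and it lies on the minus strand of chromosome 19 from 6677715 to 6730573. C3 was at 88.1 CPM (189 counts) in the vector library, 76.5 CPM (107 counts) with YAP, 61.3 CPM (147 counts) in YAP/TEAD4-FL, 43.4 CPM (131 counts) in YAP/TEAD4-S and 84.4 CPM (221 counts) in the RBM4-labelled library. The levels of the vector, YAP and YAP/RBM4 libraries were close, and YAP/TEAD4-S was the lowest. The ratios of C3 to vector were 0.868 (0.678 to 1.11) with YAP, 0.696 (0.557 to 0.868) in YAP/TEAD4-FL, 0.493 (0.392 to 0.619) in YAP/TEAD4-S and 0.958 (0.785 to 1.17) in the RBM4-labelled library. With TMM factors the YAP/TEAD4-S ratio was 0.607 (0.482 to 0.762), which is below 1 beyond counting error but within 2-fold. Against YAP alone C3 was lower in YAP/TEAD4-S, at 0.568 (0.437 to 0.741), or 0.711 (0.546 to 0.926) with TMM factors, and in YAP/TEAD4-FL the ratio was 0.802 (0.621 to 1.04), or 0.763 (0.591 to 0.988). Between the isoforms, the ratio of the short to the full-length form was 0.708 (0.555 to 0.903) on library totals and 0.932 (0.730 to 1.19) with TMM factors, so this difference depends on the scaling. Of the exon bases of C3, 11.7% lie in a gene on the same strand that is not in the table.

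**Figure D2:**
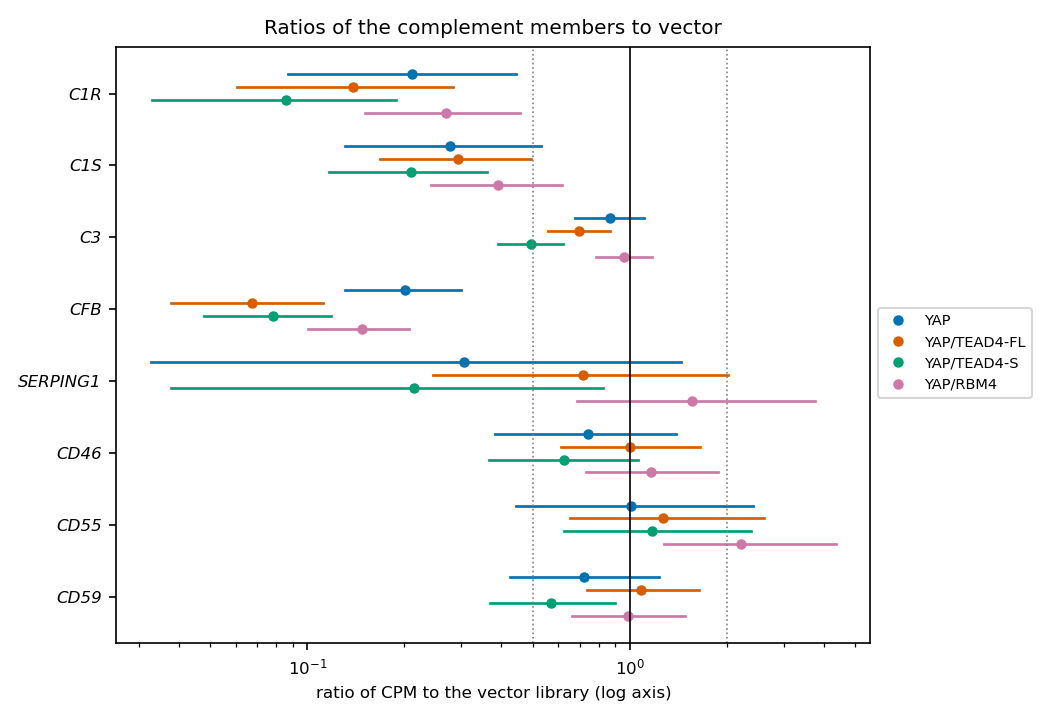
Ratio of CPM to the vector library for each complement gene with counts, on a log axis, with 1 point per YAP line and bars for the exact 95% counting interval. CFB, C1R and C1S lay below 1 with their whole intervals in each line, with C1S between 0.210 and 0.389, and CD55 lay above 1 in the RBM4-labelled library at 2.22.

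The soluble regulators among the members, SERPING1 and CFI, were the members with the fewest counts. SERPING1 encodes the C1 inhibitor, which inactivates C1r and C1s, and lies on the plus strand of chromosome 11 from 57364860 to 57386644. SERPING1 was at 4.66 CPM (10 counts) in the vector library, 1.43 CPM (2 counts) with YAP, 3.34 CPM (8 counts) in YAP/TEAD4-FL, 0.995 CPM (3 counts) in YAP/TEAD4-S and 7.25 CPM (19 counts) in the RBM4-labelled library. The values with YAP and in YAP/TEAD4-S stand at or under the floor of 3 counts, which is 2.14 CPM and 0.995 CPM in those libraries. Its ratios to vector were 0.307 (0.0327 to 1.44), 0.716 (0.246 to 2.01), 0.213 (0.0377 to 0.829) and 1.56 (0.688 to 3.75), and the interval in YAP/TEAD4-S reached 1.02 with TMM factors. No difference of SERPING1 from vector therefore stood clear of counting error under both scalings. CFI, on chromosome 4 from 110652164 to 110723306, encodes the protease that inactivates C3b and C4b. Its 0 counts are read against the floor of 3 counts. That floor is 1.399 CPM with the vector, 2.14 CPM with YAP, 1.25 CPM in YAP/TEAD4-FL, 0.995 CPM in YAP/TEAD4-S and 1.15 CPM in the RBM4-labelled library. The exact 95% interval reaches higher, to 1.72, 2.64, 1.54, 1.22 and 1.41 CPM in the same order.

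The membrane regulators were detected in every library at 7.68 to 24.5 CPM. CD46, on chromosome 1 from 207925382 to 207968858, encodes the cofactor for cleavage of C3b and C4b at the cell surface. CD46 was at 15.4 CPM in the vector library, 11.4 CPM with YAP, 15.4 CPM in YAP/TEAD4-FL, 9.62 CPM in YAP/TEAD4-S and 17.9 CPM in the RBM4-labelled library. None of its intervals excluded 1, in the comparisons with vector, with YAP or between the isoforms, and the lowest ratio to vector was 0.625 (0.366 to 1.06) in YAP/TEAD4-S. MIR29B2CHG, which is not in the table, covers 5.14% of the exon bases of CD46 from the other strand.

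CD55, on chromosome 1 from 207494864 to 207560149, encodes decay-accelerating factor, which takes the C3-cleaving enzymes apart. CD55 was at 7.68 CPM (16 counts) in the vector library, 7.74 CPM (11 counts) with YAP, 9.74 CPM (23 counts) in YAP/TEAD4-FL, 9.001 CPM (27 counts) in YAP/TEAD4-S and 17.0 CPM (45 counts) in the RBM4-labelled library. The last library stood highest, and the other 4 were close together. Its ratio to vector was 2.22 (1.28 to 4.37), or 1.99 (1.15 to 3.92) with TMM factors, and its ratio to YAP was 2.2002 (1.11 to 4.69), or 2.01 (1.02 to 4.28). The ratios to vector with the other constructs were 1.01 (0.442 to 2.42), 1.27 (0.651 to 2.61) and 1.17 (0.624 to 2.38). CD55 was the only member at its lowest in the vector library, and the only one called 2-fold higher than vector in any line, a call that TMM factors end.

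CD59, on the minus strand of chromosome 11 from 33724556 to 33758025, encodes the protein that blocks the membrane pore. CD59 was at 22.5 CPM in the vector library, 16.2 CPM with YAP, 24.5 CPM in YAP/TEAD4-FL, 12.9 CPM in YAP/TEAD4-S and 22.2 CPM in the RBM4-labelled library. It was lowest in YAP/TEAD4-S. The ratio to vector there was 0.571 (0.369 to 0.901), and the ratio to YAP/TEAD4-FL was 0.525 (0.341 to 0.801), but with TMM factors these were 0.702 (0.454 to 1.11) and 0.691 (0.449 to 1.05). In the other lines the ratios of CD59 to vector were 0.720 (0.426 to 1.23), 1.09 (0.739 to 1.65) and 0.987 (0.663 to 1.48). A gene on the same strand that is not in the table shares 5.96% of its exon bases.

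Counted per line against YAP alone, the members gave few calls. YAP/TEAD4-FL had 1 of 8 lower, CFB (background 3.94%), and none higher (11.6%). YAP/TEAD4-S had 2 lower, CFB and C1R (8.62%), and none higher (6.1%), and the interval of C1R includes 1. The library labelled YAP/RBM4 had none lower (2.94%) and 2 higher (13.3%), CD55 and SERPING1, the latter at 5.08 (1.22 to 44.9) from only 2 counts in the YAP library. Between the isoforms, 1 member was lower in YAP/TEAD4-S (11.2%), SERPING1 at 0.298 with an interval of 0.0509 to 1.24, and none was higher (2.22%). Across the 5 libraries the highest level fell in the vector library for C1R, C1S, C3 and CFB, in YAP/TEAD4-FL for CD59, and in the RBM4-labelled library for SERPING1, CD46 and CD55. The lowest fell in YAP/TEAD4-S for 6 members, in YAP/TEAD4-FL for CFB and in the vector library for CD55. YAP/TEAD4-S is also the library in which the median of all genes was lowest on library totals.

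Levels can be set beside each other between genes only per length, taken here as all annotated exon bases of a gene. The transcripts expressed may be shorter, and the counting intervals do not cover that difference. Per kilobase of annotated exon, CFB stood first in the vector library at 18.7 CPM, above C3 at 7.61, C1R at 5.76, C1S at 3.43 and CD59 at 2.13 CPM per kilobase. Then came CD46 at 0.992, CD55 at 0.749, SERPING1 at 0.645 and CFI at 0. The interval of CFB there (16.3 to 21.4) did not meet that of C3 (6.56 to 8.78), whereas C3 and C1R, C1R and C1S, C1S and CD59, and CD46, CD55 and SERPING1 had intervals that met their neighbours'. In each of the other 4 libraries C3 stood first, at 6.60 CPM per kilobase with YAP, 5.30 in YAP/TEAD4-FL, 3.75 in YAP/TEAD4-S and 7.29 in the RBM4-labelled library. CFB was then at 3.76, 1.26, 1.46 and 2.76 CPM per kilobase, and its interval met that of C3 with YAP only.

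The wider complement list held 51 genes, of which 24 passed the filter and 21 had no count in any library. Besides the members, it has 42 genes, 16 of them above the filter. Of these 16, 2 were lower with YAP (background 9.57%), 3 in YAP/TEAD4-FL (6.0%), 3 in YAP/TEAD4-S (11.0%) and 2 in the RBM4-labelled library (3.47%), and 0, 1, 0 and 0 were higher (4.9%, 8.9%, 3.5% and 9.22%). These are few genes, and the shares with YAP and in YAP/TEAD4-S stand near the background. C4A and C4B were the pair called lower each time, with CD93 added in YAP/TEAD4-FL and ITGB2 in YAP/TEAD4-S, both under a mean of 10 CPM and named here after their values were seen. CD93 had 4 counts with the vector and 0 in YAP/TEAD4-FL, and ITGB2 had 4 with the vector and 1 in YAP/TEAD4-S. Both calls thus rest on counts near the floor of 3, and neither interval lay below 1. CD93, at a mean of 1.06 CPM, passed the filter through the vector library. The reads of C4A and C4B may have been split between them, and C4B passed the filter through the vector library. The gene called higher in YAP/TEAD4-FL was C1QBP, a mitochondrial protein that also binds C1q, at 2.13 (1.49 to 3.09), or 1.99 (1.39 to 2.89) with TMM factors. The median log2 ratio to vector of the 16 was −0.10, −0.34, −0.63 and −0.041 in the same order of lines, beside 0.00060, 0.094, −0.29 and 0.17 over all genes.

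By pathway, the genes called lower in every comparison with vector were CFB and 4 genes of the classical arm, while SERPING1, C3, CD93 and ITGB2 were called in some lines only, as given above. Of the 4, C4A and C4B are near-identical copies whose reads may have been split, so they are not independent in this count. C4B had 17 counts with the vector and 2, 2, 0 and 3 counts in the other lines, so it passed the filter through the vector library. Of all 15024 genes, 9.57% were called lower with YAP, 6.0% in YAP/TEAD4-FL, 11.0% in YAP/TEAD4-S and 3.47% in the RBM4-labelled library. The share of all genes called in every comparison was not counted, and the comparisons share the vector library. Of 15 classical and lectin genes 6 passed the filter, and 4 were lower than vector in each comparison, namely C1R, C1S, C4A and C4B. The other pair of that group is C2, described above, and MASP2, the protease of the lectin pathway, which was at 65.4 CPM in the vector library, 56.4 CPM with YAP, 52.6 CPM in YAP/TEAD4-FL, 41.6 CPM in YAP/TEAD4-S and 46.2 CPM in the RBM4-labelled library. On library totals MASP2 lay below vector beyond counting error in YAP/TEAD4-S and in the RBM4-labelled library, within 2-fold. In the alternative pathway 3 of 4 passed. Besides CFB and C3 these included CFD, the protease that cleaves factor B, at 16.8 CPM with the vector, 17.0 CPM with YAP, 13.0 CPM in YAP/TEAD4-FL, 9.34 CPM in YAP/TEAD4-S and 17.0 CPM in the RBM4-labelled library. Its ratio of 0.556 (0.325 to 0.932) in YAP/TEAD4-S was 0.684 (0.40003 to 1.15) with TMM factors, and another gene of the table lies opposite to 14.0% of its exon bases. The terminal pathway, which forms the pore, had 1 of 7 genes above the filter, C7, at between 24.3 and 40.2 CPM.

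Among regulators outside the members, CLU, which encodes clusterin, an inhibitor of pore assembly, was at 40.6 CPM with the vector, 21.4 CPM with YAP, 26.3 CPM in YAP/TEAD4-FL, 22.6 CPM in YAP/TEAD4-S and 37.8 CPM in the RBM4-labelled library. Its ratios to vector were 0.529 (0.337 to 0.809), 0.648 (0.461 to 0.907), 0.556 (0.399 to 0.772) and 0.932 (0.692 to 1.26), so 3 lines lay below vector beyond counting error without reaching 2-fold. CR1, the receptor for C3b, ranged from 21.3 to 35.0 CPM, and C5AR1, the receptor for C5a, from 17.4 to 23.8 CPM, and neither reached 2-fold in a comparison with vector. CR1 was highest with the vector. At 21.8 CPM in YAP/TEAD4-FL and 21.3 CPM in the RBM4-labelled library, it lay below vector beyond counting error on library totals.

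**Figure D3:**
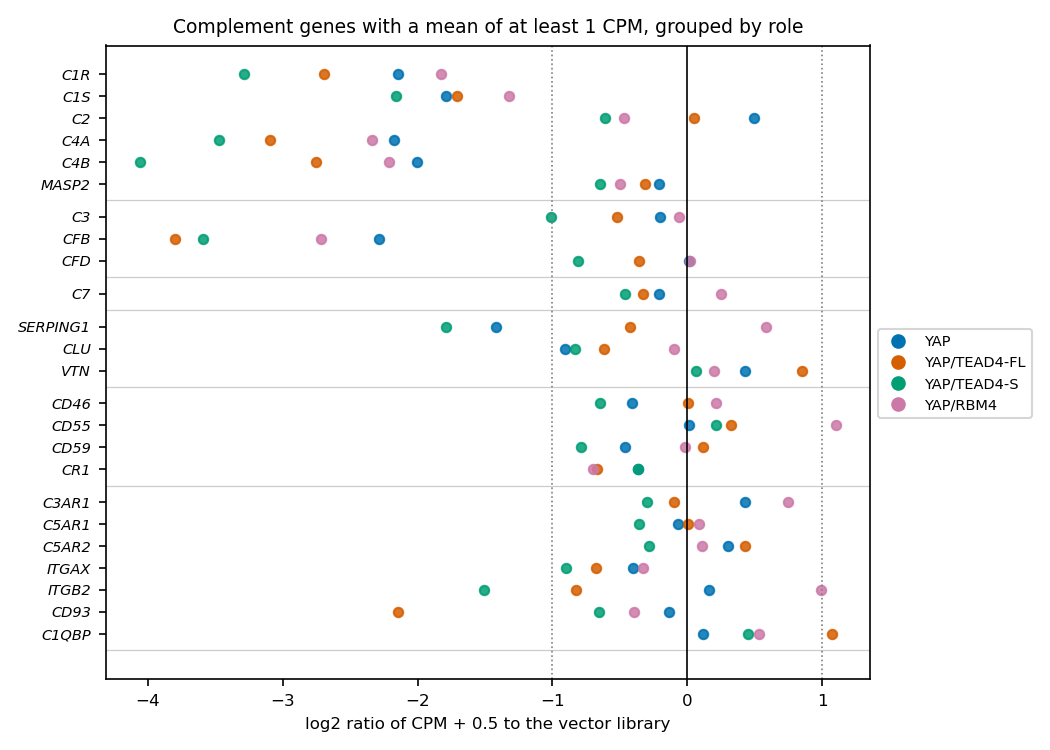
Log2 ratio of CPM + 0.5 to vector for the complement genes above the filter, grouped by pathway, with 1 point per YAP line and dotted lines at 2-fold. C1R, C1S, C4A, C4B and CFB lay below the lower line in each YAP line, and C2, MASP2 and CFD stayed within 2-fold.

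Factor B, C3 and the C1 proteases are known targets of interferon, interleukin 6 and NF-kB signalling, so a list of those ligands, receptors, transcription factors and target genes was set beside them. All 37 genes were in the table and 29 passed the filter. Lower than vector were 8 with YAP (background 9.57%), 9 in YAP/TEAD4-FL (6.0%), 13 in YAP/TEAD4-S (11.0%) and 4 in the RBM4-labelled library (3.47%). Higher were 0, 1, 0 and 2 (4.9%, 8.9%, 3.5% and 9.22%). The gene called higher in YAP/TEAD4-FL was BIRC3, those in the RBM4-labelled library were BIRC3 and NFKB1, and the 4 lower there were IL6, CEBPD, SOD2 and SAA1, of which BIRC3, NFKB1 and SAA1 stayed under a mean of 10 CPM and are named after their values were seen. With TMM factors the ratios of NFKB1 and BIRC3 in the RBM4-labelled library were 1.86 and 1.93. The median log2 ratio of the 29 was −0.51, −0.34, −0.92 and 0.060, beside 0.00060, 0.094, −0.29 and 0.17 over all genes.

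Of the cytokines, IL6 was at 115.6 CPM with the vector, 41.4 CPM with YAP, 15.0 CPM in YAP/TEAD4-FL, 18.9 CPM in YAP/TEAD4-S and 53.8 CPM in the RBM4-labelled library. Like CFB, IL6 was lowest with the TEAD4 isoforms, at ratios to vector of 0.130 (0.0889 to 0.185) and 0.164 (0.120 to 0.219), against 0.358 (0.265 to 0.479) with YAP and 0.466 (0.376 to 0.575) in the RBM4-labelled library. Its receptor subunits did not reach 2-fold on library totals. IL6R, the binding subunit, had ratios between 0.779 and 1.18, and IL6ST, the signalling subunit, between 0.521 and 0.632.

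Among transcription factors, CEBPD, an acute-phase regulator, was at 442 CPM with the vector, 200.8 CPM with YAP, 146 CPM in YAP/TEAD4-FL, 149.9 CPM in YAP/TEAD4-S and 138.2 CPM in the RBM4-labelled library. It was called lower in each comparison with vector. STAT3, which carries the signal of interleukin 6 to the nucleus, had ratios to vector of 1.29 (0.945 to 1.78), 1.403 (1.07 to 1.85), 0.733 (0.545 to 0.991) and 1.25 (0.961 to 1.66), and with TMM factors the value in YAP/TEAD4-S was 0.902 with an interval of 0.670 to 1.22. IRF1, a factor induced by interferon, stayed between 0.782 and 1.26, although annotated exons lie opposite to 22.9% of its exon bases. RELA, an NF-kB subunit, stayed between 10.6 and 15.4 CPM. NFKB2, another subunit, had 1.79 (1.44 to 2.25) in the RBM4-labelled library and between 0.701 and 0.907 elsewhere.

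The NF-kB target SOD2, mitochondrial superoxide dismutase, was at 174.8 CPM with the vector, 42.9 CPM with YAP, 33.4 CPM in YAP/TEAD4-FL, 29.2 CPM in YAP/TEAD4-S and 60.7 CPM in the RBM4-labelled library, and was called lower in each comparison with vector. The chemokines of the list split by line. CXCL8 was at 107 CPM with the vector, 30.0 CPM with YAP, 36.6 CPM in YAP/TEAD4-FL and 28.5 CPM in YAP/TEAD4-S, but at 125.6 CPM in the RBM4-labelled library, a ratio to vector of 1.17 (0.987 to 1.39). CXCL1 had ratios to vector of 0.322 (0.209 to 0.487), 0.229 (0.153 to 0.333), 0.177 (0.118 to 0.259) and 0.808 (0.631 to 1.03). CXCL2 went another way in YAP/TEAD4-FL. It was at 35.3 CPM with the vector, 11.4 CPM with YAP, 55.4 CPM in YAP/TEAD4-FL, 11.5 CPM in YAP/TEAD4-S and 41.8 CPM in the RBM4-labelled library, with ratios to vector of 0.322 (0.176 to 0.558), 1.57 (1.17 to 2.10), 0.325 (0.213 to 0.495) and 1.18 (0.868 to 1.596). In the RBM4-labelled library CFB, C1R and C1S were thus below vector while CXCL8, CXCL1 and CXCL2 were not below it beyond counting error on library totals. With TMM factors the interval of CXCL1 there was 0.567 to 0.927. NFKBIA, the inhibitor that NF-kB induces, had ratios of 0.820 (0.591 to 1.13), 0.502 (0.364 to 0.688), 0.505 (0.375 to 0.678) and 0.806 (0.614 to 1.05). With TMM factors its ratio in YAP/TEAD4-FL was 0.470, past 2-fold, and its interval in the RBM4-labelled library was 0.552 to 0.947. Whether these genes have a part in the levels of the complement genes was not tested.

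**Figure D4:**
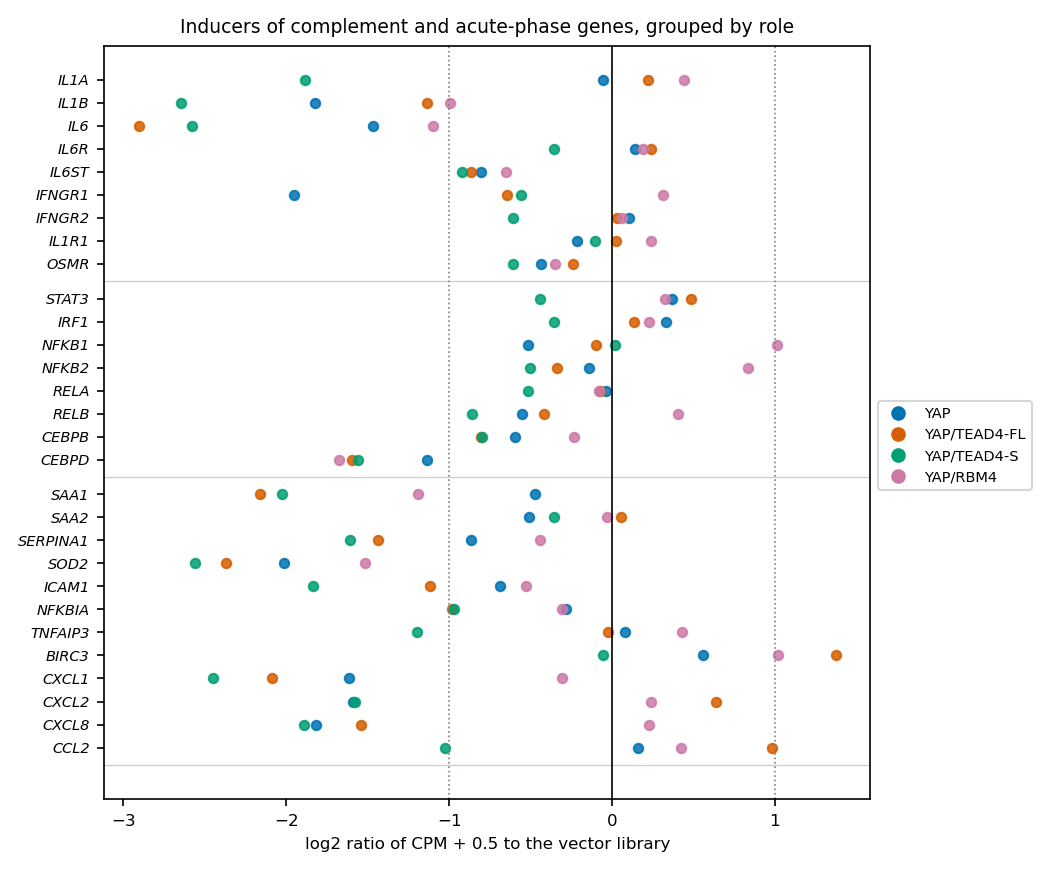
Log2 ratio of CPM + 0.5 to vector for the cytokine, transcription factor and NF-kB target genes above the filter, with 1 point per YAP line and dotted lines at 2-fold. IL6, CEBPD and SOD2 lay below the lower line in each YAP line, while CXCL8 was below it in 3 and at 1.17 times vector in the RBM4-labelled library.

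Around CFB on chromosome 6, 15 other genes of the table lie within 100 kb, and 13 passed the filter. Lower than vector were 4 with YAP (background 9.57%), 6 in YAP/TEAD4-FL (6.0%), 4 in YAP/TEAD4-S (11.0%) and 5 in the RBM4-labelled library (3.47%), and higher was 1 with YAP (4.9%). The median log2 ratio of the 13 was −0.22, −0.86, −0.61 and −0.32. C4A, C4B and TNXB were called lower each time. As above, C4A and C4B may share reads, and C4B passed the filter through the vector library. NEU1 was also called with YAP and in YAP/TEAD4-FL, DXO in the 3 lines other than YAP, and TNXA in YAP/TEAD4-FL and the RBM4-labelled library, while TNXA was the gene called higher with YAP. TNXB lies next to C4B and encodes tenascin-X, a protein of the matrix, with 51.0 CPM (109 counts) in the vector library, 3.53 CPM (5 counts) with YAP, 5.42 CPM (13 counts) in YAP/TEAD4-FL, 0.836 CPM (3 counts) in YAP/TEAD4-S and 9.93 CPM (26 counts) in the RBM4-labelled library. The pseudogene TNXA, a partial copy of TNXB that may share its reads, had only 3, 12, 0, 5 and 0 counts. TNXA passed the filter through the YAP library, where it was called higher, and its lower calls set 0 counts against 3. NEU1 had 13 counts with the vector, 3 with YAP and 6 in YAP/TEAD4-FL. DXO, an RNA decapping enzyme, had ratios to vector of 0.547 (0.403 to 0.731), 0.4004 (0.302 to 0.524), 0.329 (0.2505 to 0.431) and 0.425 (0.327 to 0.551), and genes of the table lie opposite to 26.0% of its exon bases.

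The low levels did not extend over the whole neighbourhood. NELFE, which encodes a subunit of the negative elongation factor and whose annotated end is the base after that of CFB, had ratios of 0.752 (0.586 to 0.958), 1.03 (0.847 to 1.24), 0.671 (0.548 to 0.819) and 1.03 (0.858 to 1.25), and with TMM factors the interval in YAP/TEAD4-S reached 1.01. STK19, which starts between CFB and C4A, had 1.28, 1.10, 0.864 and 1.04, all with intervals that include 1. STK19 shares 7.66% of its exon bases with C4A on the same strand, and DXO lies opposite to 16.3% of them. SLC44A4 and EHMT2, upstream of C2, had ratios between 0.645 and 0.947 and between 0.699 and 1.22. Genes called lower and genes within 2-fold thus alternate along this stretch.

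**Figure D5:**
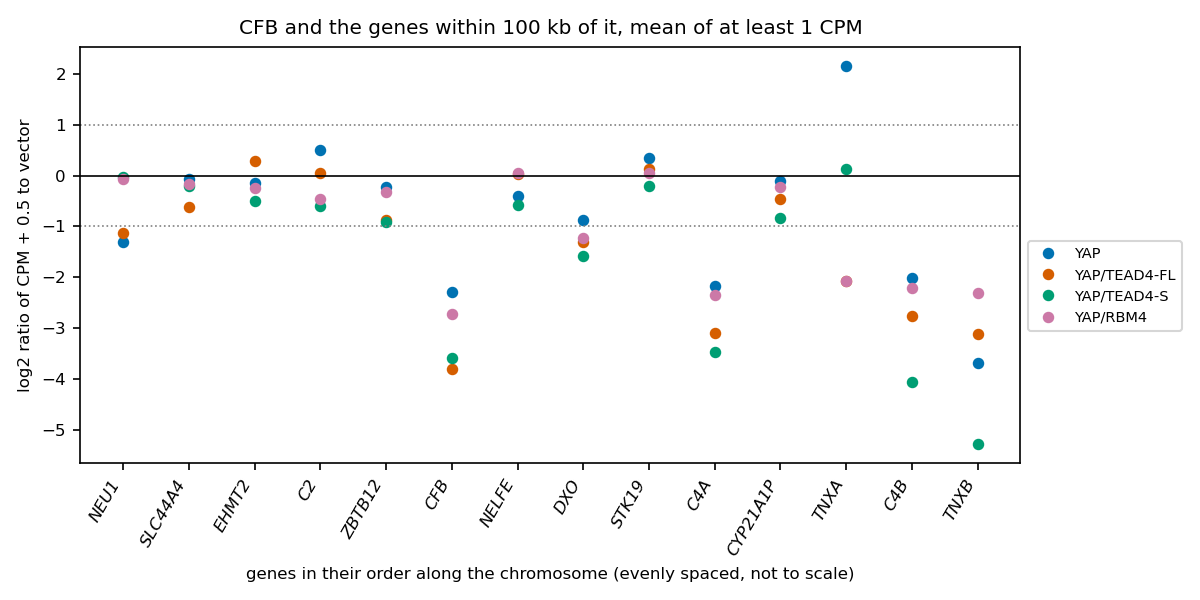
Log2 ratio of CPM + 0.5 to vector for CFB and the 13 genes within 100 kb of it that passed the filter, in their order along the chromosome and evenly spaced, with 1 point per YAP line and dotted lines at 2-fold. CFB, C4A, C4B and TNXB lay below the lower line in each YAP line, and C2, NELFE and STK19 stayed within 2-fold.

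The genes whose pattern over the 5 libraries was most like that of CFB were found by the Euclidean distance of log2(CPM + 0.5), centred on each gene's mean, among 8305 genes whose mean reached 10 CPM. The 5 nearest were CADM3-AS1 (distance 0.61), BEST1 (0.79), APOE (1.09), FAIM3 (1.12) and HCG4 (1.15). APOE, a lipid carrier protein, was at 237 CPM with the vector, 60.7 CPM with YAP, 43.0 CPM in YAP/TEAD4-FL, 33.5 CPM in YAP/TEAD4-S and 75.6 CPM in the RBM4-labelled library. Of the 5 nearest, 3 lie opposite to others, with 27.0% of the exon bases of CADM3-AS1, 14.6% of BEST1 and 73.7% of HCG4 on the other strand of annotated exons, and the deposited data do not settle how such reads were assigned. FAIM3 was not found under that symbol in the annotation, so its overlaps were not examined. Among members above 10 CPM, C1S ranked 26 of 8304 at a distance of 1.66, C3 ranked 522 at 2.52, CD59 ranked 3000, CD46 ranked 3030 and CD55 ranked 7428. The mean used for this filter includes the vector library, where genes like CFB are high. CADM3-AS1 (63.9 CPM with the vector, 2.50 to 8.40 CPM elsewhere) and C1S passed through that library. C1R, with a mean of 9.22 CPM, was not searched. The likeness describes 5 libraries and carries no test.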

How the data were processed

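The authors ran RSEM (version not stated in the sources used here) over Bowtie2 alignments to hg19, with 75 as mean fragment length and 10 as its SD. The processing notes of the submitters give version 2.2.5 for Bowtie2. The deposited values are expected counts, estimates per gene without scaling. How the RNA was selected is unclear, since the methods name polyadenylated RNA beside a Total RNA kit and Ribo-Zero. Column names carry the words second strand, and no strand setting is stated. Antisense genes were therefore set beside the genes they are named after, where both are in the table and have exons on opposite strands.

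The members and the lists were chosen with earlier results of these data known. The genes named are the 9 members, list genes whose mean reached 10 CPM, genes within 100 kb of CFB, the 5 genes most like it and the construct genes. A gene of the list of interferon, interleukin 6 and NF-kB genes is not reported here, and the counts of that list are without it. CPM were taken on library totals. For log2 ratios 0.5 CPM was added, and genes had to reach a mean of 1 CPM. Expected counts were rounded to whole numbers for Clopper-Pearson intervals, and a count of 0 was read against a floor of 3 counts. The floor was between 0.995 and 2.14 CPM, and intervals and floors cover counting error only. Statistical tests, EBSeq included, were not run, since each line has 1 library. TMM factors came from edgeR (version 4.0.16) and size factors from DESeq2 (version 1.42.0) in R (version 4.3.3). The remaining steps ran in Python 3.11.15 (numpy 2.4.6, pandas 2.3.3, scipy 1.17.1, matplotlib 3.10.9) and were tested on simulated data. Coordinates and exon overlaps come from GENCODE on hg19, which held 21537 of 25343 symbols. As alternatives, libraries were scaled by TMM, by DESeq2 or by totals that left out the 50 most abundant genes, the pseudocount was 0.1 or 2 CPM, the filter was dropped or raised to 10 CPM, the threshold was 1.5-fold or asked for an interval without 1, and counts were used unrounded.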

Additional observations from a re-analysis of the deposited data

How the results depend on the processing

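Of 144 counts of members recomputed under an alternative, 122 stayed within 1.5 times the value reported, and of 256 recomputed ratios 254 stayed within their counting interval. Some of these could not change. Dropping the filter adds only CFI, which had no count, and the reported ratios were already taken from unrounded counts. No ratio called 2-fold changed its direction. Of the 64 member ratios, 6 crossed 1 under another scaling, each with a counting interval that includes 1: C3 in the RBM4-labelled library over YAP (1.10, and 0.989 by DESeq2 size factors), CD46 in YAP/TEAD4-FL over vector (1.003, 0.934) and in YAP/TEAD4-S over YAP (0.841, 1.05), CD55 with YAP over vector (1.01, 0.995) and between the isoforms (0.924, 1.22), and CD59 in YAP/TEAD4-S over YAP (0.793, and 1.003 without the 50 most abundant genes). A filter at 10 CPM, which removes C1R and SERPING1, left 2 members lower than vector with YAP and 3 in YAP/TEAD4-S, 1 lower than YAP in YAP/TEAD4-S, 1 higher than YAP in the RBM4-labelled library and 0 lower in the short than in the full-length isoform. TMM factors, DESeq2 size factors and a pseudocount of 2 CPM each left 0 members higher than vector in the RBM4-labelled library, 1 higher than YAP there, and 1 lower than YAP in YAP/TEAD4-S. The last count was also 1 where the counting interval had to leave out 1, and 0 without the 50 most abundant genes. Between the isoforms, the count lower in YAP/TEAD4-S was 0 with a pseudocount of 2 CPM and with the interval rule, and 4 at a 1.5-fold threshold. That threshold also gave 2 members higher than vector in the RBM4-labelled library and 1 higher than YAP in YAP/TEAD4-FL, and a pseudocount of 0.1 CPM gave 1 for the latter. The 2 ratios that moved are those of C3 between the isoforms, 0.932 by TMM and 0.935 by DESeq2 size factors. No paired analysis was possible because the lines have 1 library each and their labels carry no replicate number. Depth limits the low members most: SERPING1 rests on 2 to 19 counts per library and C1R on 7 to 58.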
